A study of Homo sapiens with 4 samples.

Results

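Long noncoding RNA (lncRNA) genes that lie far from protein-coding genes were examined in newly made RNA. The genes were chosen by annotation and by counts. A gene was included if GENCODE lists it as a lncRNA gene, if its span from start to end lies 50000 bp or more from every protein-coding gene on either strand, and if it had at least 40 counts summed over the 4 libraries. SNHG genes, MIR host genes and PVT1 were left out. Of 60708 genes in the table, 16669 are lncRNA genes and 1037 met the rule. A further 3005 lncRNA genes at that distance were left out for having fewer than 40 counts, 887 of them with 0 counts in all libraries, and 21 genes were left out by symbol. XIST is among the 1037 genes and is included in the counts over all of them, but it is not described singly.

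The cell line was HEK293, which derives from human embryonic kidney. Its own RPB1, the largest subunit of RNA polymerase II, had been fused to a degron, so that the protein is degraded once auxin is given. All 4 libraries came from such cells after auxin. The cells were transfected with RPB1 that has a C-terminal domain (CTD) of 52 repeats, either the wild-type sequence (52X WT, 2 libraries) or the T4A mutant, in which the threonine at the 4th position of the repeat is replaced by alanine (52X T4A, 2 libraries). Auxin was added 48 h after transfection and kept for a further 48 h, and RNA was labeled with 4-thiouridine for 20 min for TT-seq. This method pulls down and sequences nascent and just finished RNA, with its introns. The RPB1 came from a transiently transfected plasmid, so cells that took up none and cells that took up much could not be told apart. POLR2A, the gene of RPB1, had 377312 and 384353 counts in 52X WT and 251502 and 279478 in 52X T4A, and its reads do not show which CTD was made.

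The CTD of RNA polymerase II is a tail of repeated heptads whose phosphorylation recruits factors for capping, splicing, 3′ end formation and termination. LncRNA genes use the same polymerase as protein-coding genes. Many of their transcripts are spliced poorly, end early, stay in the nucleus and are removed by the nuclear exosome. TT-seq captures such short-lived RNA better than sequencing of total RNA does. A lncRNA gene far from coding genes lies outside the stretches next to coding genes where divergent transcription and readthrough past the 3′ end are most common.

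The library totals were 39249066 and 45605027 counts for 52X WT replicates 1 and 2, and 33853507 and 33188536 counts for 52X T4A replicates 1 and 2. T4A replicate 1 stood apart. Its log2 CPM correlated at 0.975 and 0.974 with the WT libraries, against 0.989 and 0.988 for T4A replicate 2, and at 0.979 with T4A replicate 2. The markers fixed for HEK293 cells, KRT8, KRT18, VIM, NES, PAX2 and LHX1, had between 80 and 3417 counts in every library, and NEFM had at most 6. Of the markers of other cell types, PTPRC, ALB and HBB had at most 38 counts and COL1A1 between 62 and 102. Nothing states that replicates came from separate cultures, so that p-values measure only the spread between these libraries.

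The 1037 genes lie on 23 chromosomes, with 101 on chromosome 5, 99 on chromosome 2 and 85 on chromosome 1, and only 11 on chromosome 22. A symbol is given for 455 of them and 582 have only an Ensembl identifier. The median span was 92553 bp, against 14543.5 bp for other lncRNA genes and 38129 bp for protein-coding genes with at least 40 counts. Exons cover a median of 2.71% of the span, so that introns make up most of the span over which reads were counted. Reads in exons and in introns were not separated. The span had a median GC content of 39.05%, against 44.5% for both other classes. The median distance to a protein-coding gene was 152717 bp, and 149 genes lie 500000 bp or more away. The longest gene was LINC02055 near KHDRBS3, with a span of 1232815 bp. The most isolated was ENSG00000288321 on chromosome 4, which lies 2254228 bp from ARAP2. At the distance limit, LINC02249 at 50242 bp and SCHLAP1 at 50309 bp were included, and LINC01031 at 49930 bp and ENSG00000286507 at 49773 bp were not. At the count limit, LINC02913 and LINC01020 were included with 40 counts each, and ENSG00000286605 and ENSG00000286739 were not with 39 each. Of the 1037 genes, 588 overlap a gene on the other strand and 297 a gene on their own strand, and 361 overlap no other gene.

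The promoter sequences of 5 of the most counted genes are shown because these genes carry the best measured values below, and because they differ in base composition. The sequences were taken from RefSeq on GRCh38.p14, each with 250 bases before and 50 after the start of the gene. Capitals mark matches on either strand to the TATA box TATAAA, the GC box GGGCGG or the CCAAT box CCAAT. The windows are chrX:131830594-131830893 on the minus strand for FIRRE, chr16:72664921-72665220 on the minus strand for LINC01572, chr21:22098410-22098709 on the minus strand for LINC01687, chr10:42475241-42475540 on the plus strand for LINC00839 and chrX:73944074-73944373 on the plus strand for JPX.
FIRRE: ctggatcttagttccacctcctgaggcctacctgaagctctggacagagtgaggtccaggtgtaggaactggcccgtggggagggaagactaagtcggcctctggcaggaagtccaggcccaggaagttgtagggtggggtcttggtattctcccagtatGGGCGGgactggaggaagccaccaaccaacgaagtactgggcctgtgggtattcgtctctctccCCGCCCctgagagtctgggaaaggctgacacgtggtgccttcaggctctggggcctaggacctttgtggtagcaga
LINC01572: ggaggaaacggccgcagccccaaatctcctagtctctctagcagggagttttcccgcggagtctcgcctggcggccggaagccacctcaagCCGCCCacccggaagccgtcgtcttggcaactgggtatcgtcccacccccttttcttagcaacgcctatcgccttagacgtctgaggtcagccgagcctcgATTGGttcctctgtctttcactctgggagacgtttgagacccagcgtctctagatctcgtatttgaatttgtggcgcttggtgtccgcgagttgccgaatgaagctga
LINC01687: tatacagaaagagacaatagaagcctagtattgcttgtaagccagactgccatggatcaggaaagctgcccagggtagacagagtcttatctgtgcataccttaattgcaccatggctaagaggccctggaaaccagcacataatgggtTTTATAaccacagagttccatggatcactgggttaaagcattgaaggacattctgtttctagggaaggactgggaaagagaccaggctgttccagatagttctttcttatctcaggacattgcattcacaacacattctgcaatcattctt
LINC00839: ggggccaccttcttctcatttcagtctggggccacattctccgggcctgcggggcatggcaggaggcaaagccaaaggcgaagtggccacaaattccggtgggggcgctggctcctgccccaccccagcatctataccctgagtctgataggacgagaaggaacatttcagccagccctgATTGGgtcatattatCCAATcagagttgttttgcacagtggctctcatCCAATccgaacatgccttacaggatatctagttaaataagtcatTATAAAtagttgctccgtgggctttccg
JPX: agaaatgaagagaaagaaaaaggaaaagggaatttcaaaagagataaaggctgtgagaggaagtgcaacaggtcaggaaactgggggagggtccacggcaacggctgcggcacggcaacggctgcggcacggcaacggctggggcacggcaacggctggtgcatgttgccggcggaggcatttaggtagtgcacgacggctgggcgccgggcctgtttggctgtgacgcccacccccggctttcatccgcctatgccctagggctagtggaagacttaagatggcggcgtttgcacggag

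LINC01572 and JPX have windows with 24 and 22 CpG dinucleotides. LINC01687 has a window with 0 CpG and a TATA box on the opposite strand, and LINC00839 has a TATA box just after the RefSeq start with 3 CCAAT boxes before it. FIRRE has 2 GC boxes. Of the 1037 genes, 283 were matched to RefSeq by symbol and strand. The RefSeq start lay within 1000 bases of the listed start for 182 of these, and the other genes are not covered here. Over these 182 promoters the median GC content was 46.8%, against 58.7% over all 35116 promoters of the table. Promoters that were rich in CpG, with at least 55% GC and an observed over expected CpG ratio of at least 0.65, made up 14.8% of the 182 and 41.9% of all. A GC box was found in 18.1% of the 182 promoters and in 45.0% of all promoters. A TATA box was found in 18.7% and 11.5%, and a CCAAT box in 36.3% and 34.6%. When the genes were grouped in quintiles of read density over all 4 libraries, the promoters were rich in CpG in 11.1%, 8.11%, 3.33%, 17.1% and 27.7% from the sparsest to the densest quintile. In the same order, the quintiles held only 27, 37, 30, 41 and 47 of the 182 promoters. A motif match describes these letters only and does not show that a factor binds there.

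Most of these genes had few reads for their span. They held 0.606% and 0.600% of the counts of the 52X WT libraries and 0.618% and 0.597% of those of the 52X T4A libraries. The median gene had 109 counts over the 4 libraries and 100 genes had 1000 counts or more. Without XIST, the 10 most counted genes held 31.3% of all counts of the group. Read density was measured as TMM-normalized counts scaled to library size (CPM) per Mb of span. Its median was 9.36, against 142 for other lncRNA genes and 638 for protein-coding genes with at least 40 counts. The 858 olfactory receptor genes, which this kidney line is not known to use, had a pooled density of 10.5, and 545 of the 1037 genes, or 52.6%, lay below it. Only 157 genes had 10 times that density or more. These numbers depend on the set compared. The 3005 far lncRNA genes left out for low counts had lower pooled densities, from 1.88 to 5.11 in the 4 libraries. Whether the reads of the sparse genes stem from transcription units of their own was not tested.

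The most counted genes differed little between 52X WT and 52X T4A. Among the 12 genes with the highest mean CPM other than XIST, log2 fold changes of T4A over WT lay between -0.49 and 0.26, and none passed the edgeR test at an adjusted p-value of 0.05. In 6 of them both T4A libraries lay below both WT libraries, in 2 they lay above, and in 4 the groups overlapped. Over all tested genes 24.7% lay below and 24.8% above. LINC02506 (chr4:31997376-32228543) was the most counted, with 13629 and 16979 counts in WT and 11622 and 11546 in T4A. These correspond to 367 ± 26.1 CPM and 340 ± 8.69 CPM (SD, n = 2 each). Its log2 fold change of -0.11 (SE 0.10) was about the size of its error.

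Lower values in T4A were seen for FIRRE, a nuclear RNA of the X chromosome with repeated domains that is known to help organise chromatin. FIRRE (chrX:131688779-131830862) had 7929 and 9384 counts in WT and 5598 and 5221 in T4A. The level was 208 ± 7.29 CPM in WT and 159 ± 11.1 CPM in T4A, and the libraries of the groups did not overlap. The log2 fold change was -0.39 (SE 0.09, unadjusted p = 0.0031, edgeR adjusted p = 0.20). LINC01687 (chr21:22008756-22098518), 465427 bp from the cell adhesion gene NCAM2, had 4164 and 5149 counts in WT and 2552 and 2850 in T4A. Its log2 fold change was -0.49 (SE 0.09, unadjusted p = 0.00063, edgeR adjusted p = 0.16). LINC01572 (chr16:72236281-72665014) had 180 and 189 CPM in WT and 151 and 139 CPM in T4A, a log2 fold change of -0.35 (SE 0.09). KC6 (chr18:41465783-41632185) had 127 and 131 CPM in WT and 108 and 105 CPM in T4A, a log2 fold change of -0.28 (SE 0.08). These 4 genes were the ones among the 12 that were lower at an unadjusted p below 0.05. With DESeq2 their adjusted p-values were 0.0018 for FIRRE, 0.00046 for LINC01687, 0.0058 for LINC01572 and 0.030 for KC6. Their fold changes were below 1.5, so DESeq2 did not call them at the thresholds used below.

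LINC00839 (chr10:42475480-42495337), 78848 bp from the zinc finger gene ZNF33B, was higher in T4A. It had 4838 and 5802 counts in WT and 5447 and 4984 in T4A, or 128 ± 5.67 CPM and 153 ± 12.8 CPM. The log2 fold change was 0.26 (SE 0.10, edgeR adjusted p = 0.27). LINC01411 (chr5:174336295-174532457) was at 110 and 106 CPM in WT and at 134 and 120 CPM in T4A, a log2 fold change of 0.23 (SE 0.09). JPX, whose RNA is known as an activator of XIST, overlapped between the groups, with 154 and 176 CPM in WT and 158 and 159 CPM in T4A. LINC00632, the host gene of the circular RNA CDR1as, was at 131 and 141 CPM in WT and at 133 and 132 CPM in T4A. For these 2 genes the log2 fold changes were -0.06 (SE 0.10) and -0.04 (SE 0.09). ENSG00000234147 and LINC02428 overlapped as well, and LINC02994 at a log2 fold change of -0.17 (SE 0.09) was lower in both T4A libraries. LINC00662, also on the list of names, was at 90.9 and 98.2 CPM in WT and at 90.4 and 87.0 CPM in T4A.

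**Figure D1:**
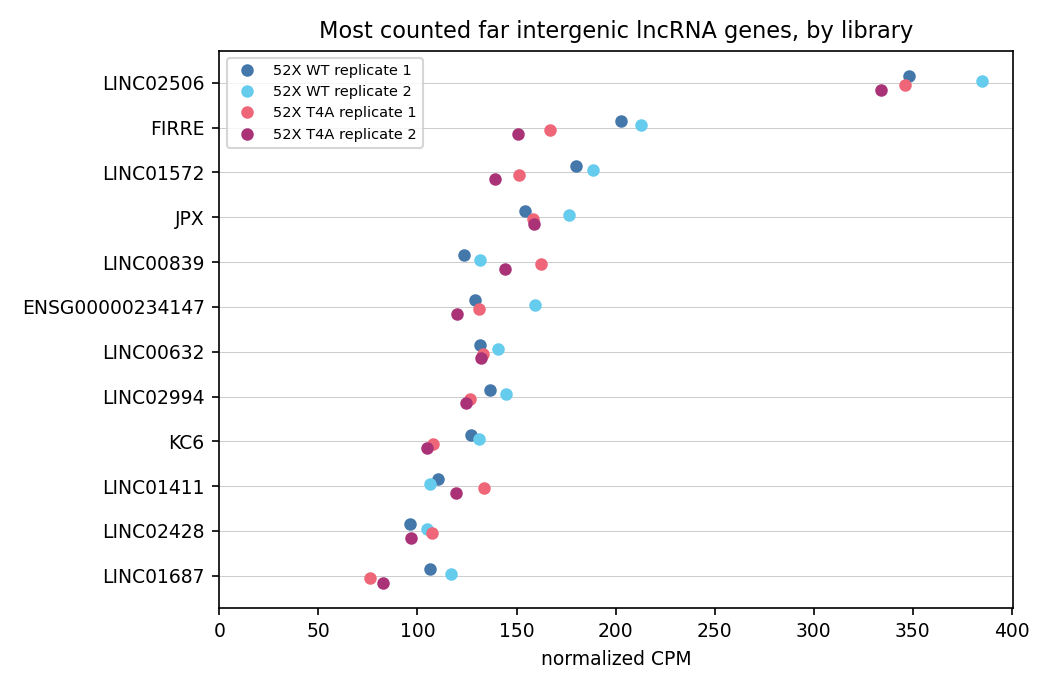
Normalized CPM of the 12 most counted far intergenic lncRNA genes other than XIST (x axis, CPM on a linear scale), with a point for each library. FIRRE, LINC01572, KC6 and LINC01687 show both T4A points below both WT points, and LINC00839 and LINC01411 show them above.

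Across all genes the test made few calls. A gene was called at an edgeR adjusted p below 0.05 and a fold change above 1.5, and 1 of 23321 tested genes was called, or 0.00429%. Of the 1037 far intergenic lncRNA genes, 992 passed the filter on low counts and were tested, and 0 were called. Their smallest adjusted p-value was 0.15. At an unadjusted p below 0.05, 176 of the 992 genes (17.7%) were higher in T4A, against 7.45% of all tested genes, and 33 (3.33%) were lower, against 8.02%. Both T4A libraries lay above both WT libraries for 445 genes (44.9%), against 24.8% of all tested genes, and below them for 109 (11%), against 24.7%. DESeq2 at the same thresholds called 0 of the 992 genes as higher, against 0.18% of all tested genes, and 2 as lower, against 0.244%. In bulk libraries, a change in the share of cells that use a gene and a change in RNA made per cell cannot be told apart.

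The 2 genes called by DESeq2 were LINC02269 and LINC02882. LINC02269 (chr4:173699082-174001488) lies 168853 bp from HAND2, a transcription factor gene of heart and limb development. It had 1175 and 1474 counts in WT and 658 and 606 in T4A, or 31.7 ± 2.42 CPM and 18.6 ± 1.47 CPM. The T4A libraries were both well below the WT libraries, with a log2 fold change of -0.77 (SE 0.13, edgeR adjusted p = 0.15, DESeq2 adjusted p = 5.1e-05). LINC02882 (chr12:73820315-74402600) had 620 and 712 counts in WT and 399 and 313 in T4A. Its log2 fold change was -0.61 (SE 0.17, edgeR adjusted p = 0.22, DESeq2 adjusted p = 0.038).

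The 8 genes with the lowest and the 8 with the highest log2 fold changes were taken among genes with a mean count of at least 50 whose T4A libraries both lay on one side of the WT libraries, so that the absence of overlap is fixed by the choice. Beside LINC02269 and LINC02882, the lower genes were ENSG00000288029, ENSG00000286973, LINC02232, LETR1, ENSG00000251388 and LINC01905. ENSG00000288029 (chr3:54033988-54058864) is 63683 bp from the calcium channel subunit gene CACNA2D3, had 154 and 164 counts in WT and 66 and 72 in T4A, and had the lowest log2 fold change of the 8, -0.92 (SE 0.23). LINC01905 (chr18:56031830-56135295) lies 367043 bp from TCF4 and had 550 and 562 counts in WT against 332 and 303 in T4A. LETR1 (chr15:95186634-95327129), known as a regulator in lymphatic endothelial cells, had 168 and 211 counts in WT and 92 and 104 in T4A, a log2 fold change of -0.66 (SE 0.22). Of these 8 genes, 7 were in the densest 2 quintiles and none was in the sparsest 2.

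The genes with the highest log2 fold changes were all sparse. They were LINC02147, XACT, ENSG00000248515, ENSG00000233358, ENSG00000287092, LINC01036, ENSG00000223786 and ENSG00000233005, with spans of 287386 to 749791 bp and densities of 1.98 to 5.68 CPM per Mb. All 8 lay in the sparsest 2 quintiles. LINC02147 (chr5:117730515-118266267) had 26 and 26 counts in WT and 104 and 54 in T4A, a log2 fold change of 1.89 (SE 0.41, edgeR adjusted p = 0.18). XACT (chrX:113616300-114059289), whose RNA is known to coat the active X chromosome in human pluripotent cells, had 36 and 36 counts in WT and 124 and 52 in T4A. Its log2 fold change was 1.58 (SE 0.44, edgeR adjusted p = 0.22). In all 8 genes T4A replicate 1 was higher than T4A replicate 2. LINC01036 for example had 66 and 48 counts in WT, and 160 and 71 in T4A. Without T4A replicate 1 the log2 fold changes of the 8 genes lay between 0.43 for ENSG00000233005 and 1.34 for LINC02147, with 0.81 for XACT and 0.59 for LINC01036.

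**Figure D2:**
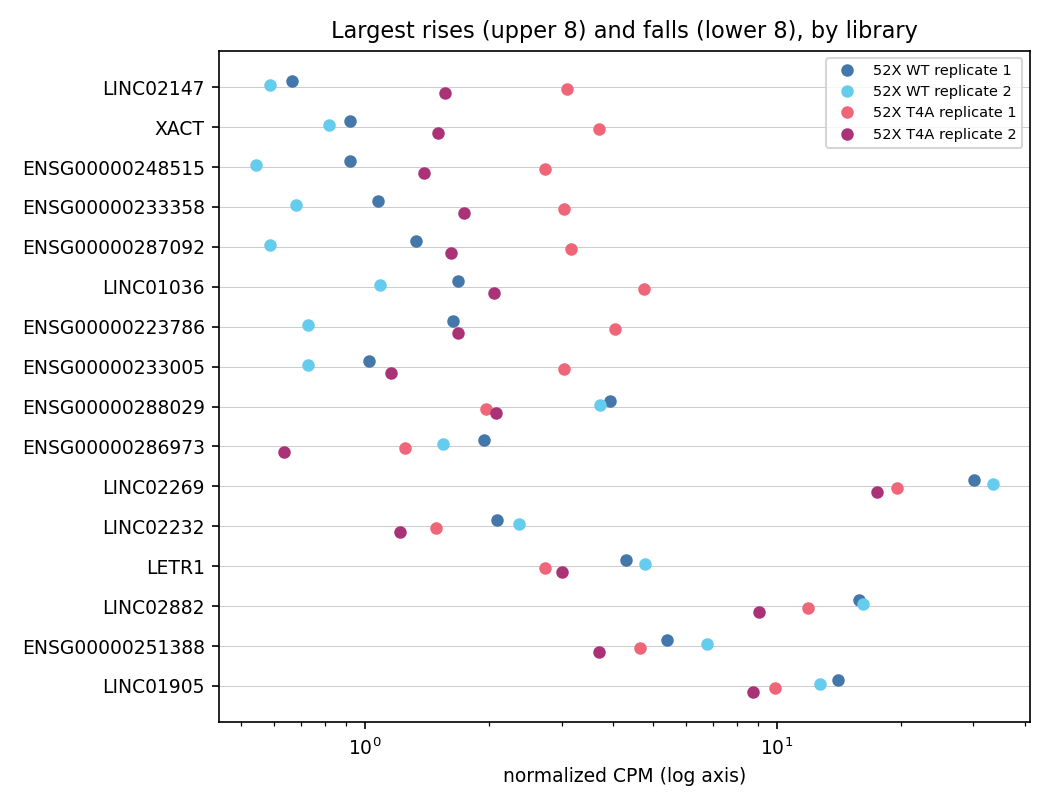
Normalized CPM (x axis, log scale) of the 8 far intergenic lncRNA genes with the highest log2 fold changes in 52X T4A (upper rows) and the 8 with the lowest (lower rows), with a point for each library. In the upper 8 rows T4A replicate 1 always lies farthest right, and in the lower rows LINC02269 has the highest CPM.

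As a group, the 992 tested genes had a median log2 fold change 0.49 above that of all tested genes, and 758 of them (76.4%) lay above the median gene. Their log2 fold changes ranged from -1.59 to 3.36, with quartiles of 0.03 and 0.95. The same median was 0.12 for 5407 other tested lncRNA genes and -0.04 for 15329 protein-coding genes. The libraries of the T4A group did not contribute equally. Relative to the mean of the WT libraries and to all tested genes, the median log2 CPM of the far intergenic lncRNA genes was 0.07 and -0.07 in WT replicates 1 and 2, 0.66 in T4A replicate 1 and 0.21 in T4A replicate 2. T4A replicate 1 had the highest CPM of the 4 libraries for 659 of the 1037 genes (63.5%), against 33.1% of all tested genes, and T4A replicate 2 for 14.1%. Without T4A replicate 1 the median was 0.21, and without T4A replicate 2 it was 0.68.

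The difference between the groups followed read density. In the sparsest quintile, below 3.21 CPM per Mb, the median log2 fold change was 1.06 above that of all tested genes, and 184 of 187 tested genes lay above the median gene. The next quintiles had 0.82, 0.49 and 0.20. In the densest quintile, above 64.9 CPM per Mb, the median was -0.02 and 101 of 207 genes lay above the median gene. In the sparsest quintile 66 of 187 genes were higher at an unadjusted p below 0.05 and 0 were lower. In the densest quintile 11 of 207 were higher and 22 were lower. Over all tested genes these shares were 7.45% and 8.02%. Of the protein-coding genes tested, 60 of 150 were higher and 1 lower in the sparsest range, and 635 of 12315 were higher and 1559 lower in the densest. Of the 71 other lncRNA genes tested in the sparsest range, 22 were higher and 0 lower. The sparsest genes were long, with a median span of 204333 bp and 36.1% GC, and the densest were shorter, with 14899 bp and 43.1% GC. Density was computed from the same 4 libraries as the fold changes, so the quintiles describe the data and do not test it. The limit of 40 counts was summed over these libraries too, and the median total in the sparsest quintile was 72 counts. At a like WT level, a sparse gene that was high in T4A could pass this limit more easily than a gene that was low. The part of this choice in the numbers of higher and lower genes, here and over the whole group, was not tested.

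T4A replicate 1 had the larger part in this pattern. In the sparsest quintile its median log2 CPM lay 1.39 above the WT mean, and that of T4A replicate 2 lay 0.50 above, with the WT libraries at 0.15 and -0.15. In the densest quintile the values were -0.04 and -0.02 for the T4A libraries and -0.03 and 0.03 for the WT libraries.

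**Figure D3:**
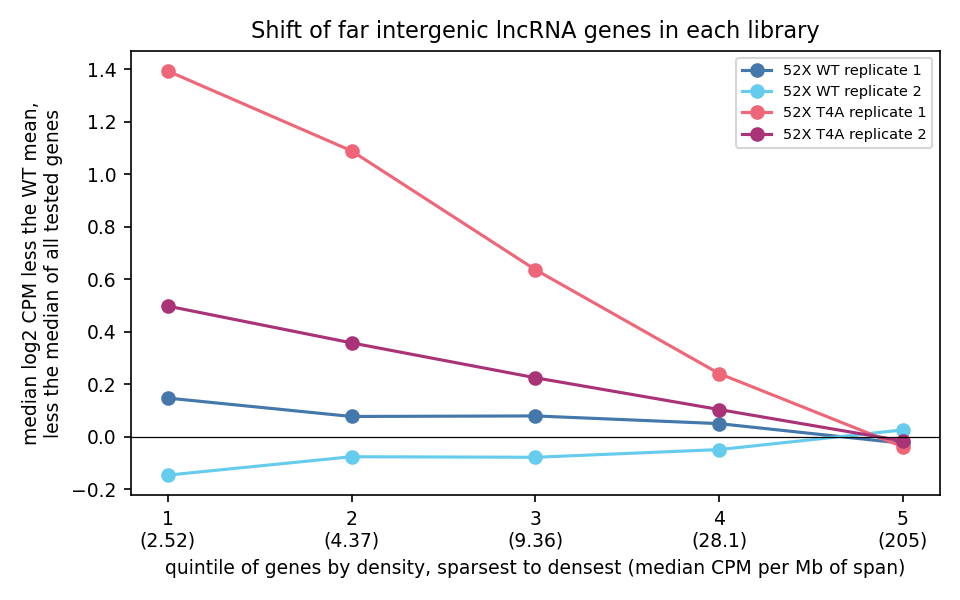
Median log2 CPM of far intergenic lncRNA genes less the mean of the WT libraries and less the median of all tested genes (y axis), by quintile of read density (x axis, with the median CPM per Mb), with a line for each library. T4A replicate 1 declines from 1.39 in the sparsest quintile to -0.04 in the densest, and T4A replicate 2 from 0.50 to -0.02.

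On the scale of density, T4A replicate 1 exceeded the WT mean in all but the densest quintile. The sparsest quintile had pooled densities of 1.68 and 1.34 CPM per Mb in WT and 4.51 and 2.12 in T4A, so that T4A replicate 1 exceeded the WT mean by 3.005. The excess was 4.04, 4.28 and 1.93 in the next quintiles, and in the densest T4A replicate 1 differed by -28.9. T4A replicate 2 differed from the WT mean by 0.62, 0.72, 1.13, -1.17 and -37.4 from the sparsest to the densest quintile. Other gene sets with few reads were also higher in T4A replicate 1. Whether they are transcribed in these cells was not tested, and 19 of the olfactory receptor genes passed the filter on low counts. Olfactory receptor genes had 9.36 and 9.97 CPM per Mb in WT and 12.8 and 9.93 in T4A, an excess of 3.14 in T4A replicate 1. The 3005 far lncRNA genes below 40 counts had 2.43 and 1.88 in WT and 5.11 and 3.02 in T4A, an excess of 2.95 in T4A replicate 1. The 3208 processed pseudogenes at the same distance from coding genes had 16.9 and 17.4 in WT and 21.9 and 19.9 in T4A. Their excess in T4A replicate 1 was 4.74. The part of such an excess in the fold changes of the sparse genes was not tested. With the olfactory receptor density of each library subtracted, 437 of the 992 genes were at 0 in all 4 libraries and had no value. The other 555 had a median of 0.15 after the subtraction and 0.17 without it.

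**Figure D4:**
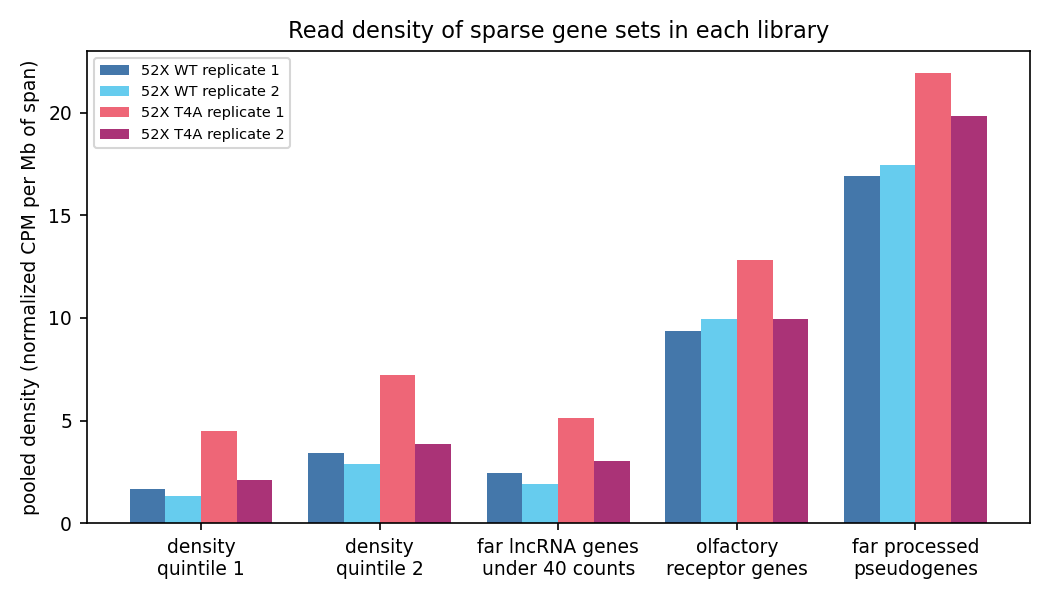
Pooled read density (y axis, normalized CPM per Mb of span) in each of the 4 libraries for the 2 sparsest quintiles of far intergenic lncRNA genes, the far lncRNA genes below 40 counts, olfactory receptor genes and far processed pseudogenes. In all 5 sets T4A replicate 1 has the highest bar, from 4.51 in the sparsest quintile to 21.9 in the pseudogenes.

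Other genes of the same density had like medians. In the 5 density ranges, from sparse to dense, other lncRNA genes had medians of 0.98, 0.78, 0.54, 0.26 and 0.02, and protein-coding genes had 1.02, 0.76, 0.47, 0.19 and -0.08. The far intergenic lncRNA genes differ in how many of them are sparse. Each range holds 207 or 208 of them by construction, whereas the sparsest range holds 158 protein-coding genes and the densest 12321.

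**Figure D5:**
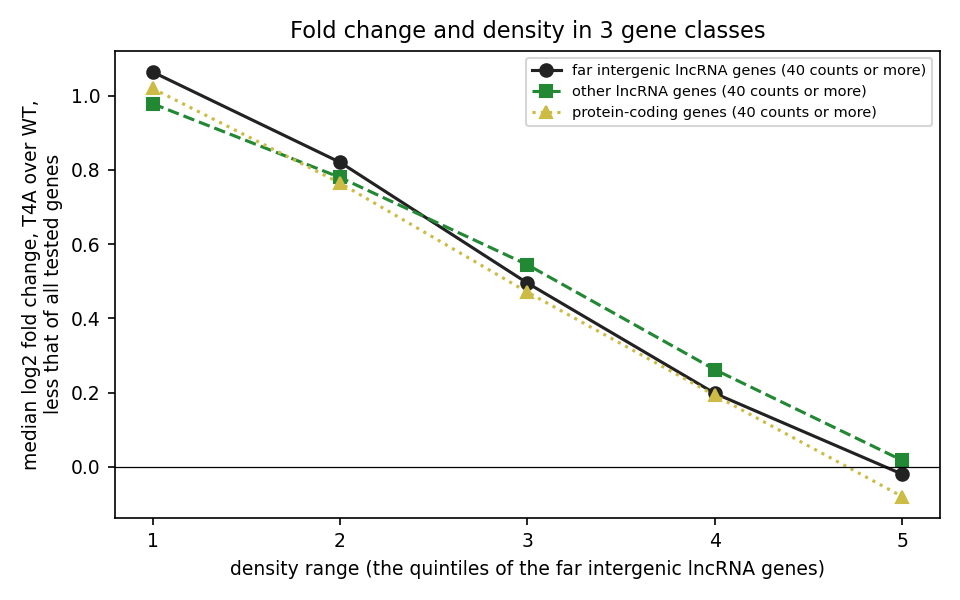
Median log2 fold change of 52X T4A over 52X WT less that of all tested genes (y axis) in the 5 density ranges set by the quintiles of the far intergenic lncRNA genes (x axis, from sparse to dense), for these genes, other lncRNA genes and protein-coding genes. The 3 lines run from about 1 in the sparsest range to between -0.08 and 0.02 in the densest.

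In the densest quintile most genes differed little. Of its 207 tested genes, 172 were within 1.5-fold between the groups, and log2 fold changes ranged from -1.39 to 1.72. Both T4A libraries lay above both WT libraries for 43 genes and below them for 59, and for 105 the groups overlapped, beside 24.8% above and 24.7% below over all tested genes. Beside the genes above, several long genes were lower at an unadjusted p below 0.05, and they are named here after their values were seen. LINC01876 (chr2:156011530-156254950), 69487 bp from the nuclear receptor gene NR4A2, had 104 ± 2.63 CPM in WT and 76.2 ± 0.43 CPM in T4A, a log2 fold change of -0.44 (SE 0.08). LINC01473 (chr2:186032884-186422432) had 83.8 ± 5.83 CPM in WT and 63.3 ± 1.49 CPM in T4A. LINC02466 (chr4:129612330-129771527) had 22.9 ± 1.90 CPM in WT and 16.4 ± 0.38 CPM in T4A. NIHCOLE (chr5:104079847-104406121), a lncRNA described in liver cancer, had 2728 and 3335 counts in WT and 1787 and 2015 in T4A, a log2 fold change of -0.38 (SE 0.10). CASC9 (chr8:75120409-75352327) had 2907 and 3212 counts in WT and 2084 and 2144 in T4A.

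The higher genes of the densest quintile were mostly short. LINC00052 (chr15:87576929-87579866), with a span of 2938 bp near the receptor gene NTRK3, had 8 and 12 counts in WT and 29 and 25 in T4A, a log2 fold change of 1.72 (SE 0.50, edgeR adjusted p = 0.23). It met the limit of 40 counts mainly through the T4A libraries, in which it was higher. LINC01879 (chr18:76686058-76693636) had 36 and 42 counts in WT and 66 and 61 in T4A. LINC00407 (chr13:44651812-44701016) had 100 and 98 counts in WT and 146 and 133 in T4A. LNCATV (chr1:234957342-234970062) had 63 and 48 counts in WT and 70 and 104 in T4A. ENSG00000270933 had 30 and 30 counts in WT and 57 and 37 in T4A. By span, the densest genes had a median of 0.11 less that of all tested genes below 10000 bp (89 genes) and of -0.26 at 300000 bp or more (10 genes), as a description with no test.

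Leaving out XIST, the 10 genes with the highest density per length were led by ENSG00000286171 (chr7:148941483-148941638), a gene of 156 bp near EZH2. It had 18.5 and 5.67 CPM per kb in WT and 15.5 and 8.71 in T4A, so that its libraries spread more than the groups differed. LINC00839 followed with 6.22 and 6.63 CPM per kb in WT and 8.17 and 7.26 in T4A. Next came ENSG00000287979 (chr1:120849674-120850985), which had 194 and 190 counts in WT and 353 and 276 in T4A, a log2 fold change of 0.997 (SE 0.20, edgeR adjusted p = 0.17). It lies 55800 bp from NOTCH2NLR, a member of a family with near-identical copies. If such copies also cover this gene, its value is uncertain, which was not tested. The same caution applies to FAM88B, ENSG00000287168 and ENSG00000229422, which lie close together on chromosome 9, and for ENSG00000272583 near FAM72B on chromosome 1. FAM88B had 8.61 and 11.1 CPM in WT and 14.3 and 13.9 CPM in T4A. ENSG00000287168 had 150 and 183 counts in WT and 32 and 139 in T4A, and ENSG00000229422 had 99 and 129 counts in WT and 8 and 129 in T4A, so that T4A replicate 1 alone was low. ENSG00000277693, LARRPM and ENSG00000278730 completed the 10, and their groups overlapped. Every gene of this order overlapped the one before it in its range over the 4 libraries.

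The genes listed by name for their known roles in cancer or development include FIRRE and LINC00662, given above. Both are in the densest quintile, and both T4A libraries lay below both WT libraries. The other listed genes were sparse or overlapped between the groups. LINC01116, near the HOXD cluster, had 196 and 230 counts in WT and 169 and 235 in T4A, and the groups overlapped. LINC01414 on chromosome 8 had 34 and 52 counts in WT and 83 and 38 in T4A, with overlap. CASC19, in the region of MYC on chromosome 8, had 10 and 10 counts in WT and 36 and 16 in T4A, a log2 fold change of 1.66 (SE 0.59, edgeR adjusted p = 0.26). It too met the limit of 40 counts mainly through the T4A libraries, and its log2 fold change was 0.96 without T4A replicate 1. The longest gene, LINC02055, had 120 and 86 counts in WT and 220 and 96 in T4A, a log2 fold change of 0.90 (SE 0.40) that was 0.17 without T4A replicate 1. The most isolated, ENSG00000288321, had 6 and 16 counts in WT and 28 and 8 in T4A. In LINC01414, CASC19, LINC02055 and ENSG00000288321, all sparse, T4A replicate 1 was the highest library.

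Distance from coding genes went with the difference between the groups, and density went with distance. Genes 50000 to 100000 bp away had a median log2 fold change 0.33 above that of all tested genes, and the median was 0.45 up to 200000 bp, 0.59 up to 500000 bp and 0.82 beyond. Their median densities were 22.0, 10.6, 5.32 and 3.70 CPM per Mb. Among genes of the densest quintile alone the medians were -0.02, 0.12, -0.03 and -0.13, with 95, 50, 41 and 21 genes. A larger shift with distance was thus not seen among the densest genes.

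Transcripts from such genes are known to be ended early and removed by nuclear surveillance, so the genes of these factors were examined as a list. It held the exosome, its NEXT and PAXT adaptors, the ZC3H4 and WDR82 restrictor, the cap-binding complex, XRN2, CPSF3 and Integrator subunits. Of the 31 genes found, 29 were tested and 0 were called, with 0 higher and 4 lower at an unadjusted p below 0.05, beside 7.45% higher and 8.02% lower over all tested genes. Their median log2 fold change was -0.01 less that of all tested genes, and 14 lay above the median gene. The 4 lower genes were ZC3H3, a PAXT subunit, ZC3H4, CPSF3, the nuclease of mRNA 3′ end formation, and INTS9. ZC3H3 had 127 and 107 CPM in WT and 56.1 and 98.3 CPM in T4A, a log2 fold change of -0.60 (SE 0.22, edgeR adjusted p = 0.27). ZC3H4 had 134 and 119 CPM in WT and 99.9 and 109 CPM in T4A, a log2 fold change of -0.28 (SE 0.10). DIS3, a nuclease of the exosome, had 146 and 159 CPM in WT and 176 and 167 CPM in T4A, a log2 fold change of 0.17 (SE 0.09). MTREX, the helicase of NEXT and PAXT, overlapped between the groups at 392 and 440 CPM in WT and 447 and 397 CPM in T4A. EXOSC3 and PABPN1 were listed at 0 counts in all libraries, for a reason that was not tested. RBM7, among the 29 tested genes, had only 12 and 15 counts in WT and 4 and 26 in T4A.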

How the data were processed

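TT-seq was done in 2 libraries of 52X WT and 2 of 52X T4A, grouped by their titles. The authors deposited raw counts from featureCounts for 60708 genes, and their processing notes name GRCh38, FastQC, cutadapt 4.6, STAR 2.7.11b, Picard and deepTools 3.5.6. The deposited gene length, a number of bp in a column of its own, equals the span of all 60708 genes, so intron reads were counted. Gene types, symbols and GC content came from a GENCODE annotation on GRCh37, matched by stable identifier for 58742 genes. The 1966 unmatched genes held 0.338% of counts and could not be members. Coordinates are those of the deposited table. Of 19065 coding symbols, 99.885% overlapped their GRCh38 position in RefSeq, and 85 of the 1037 genes lie within 50000 bp of a RefSeq coding gene. Symbols in the text come from the older annotation.

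The test was that of edgeR 4.0.16 (R 4.3.3), using TMM factors of 0.998, 0.967, 0.993 and 1.04, the default filter on low counts, the quasi-likelihood test and Benjamini-Hochberg adjustment over 23321 genes. Calls needed an adjusted p below 0.05 and a fold change above 1.5. DESeq2 1.42.0 was an alternative. Standard errors were derived from the F statistic, log2 CPM used a prior count of 2, and the shift is a median less that of all tested genes. The fit was tested only on counts simulated from its own means and spread. Such counts do not hold a library that stands apart, as T4A replicate 1 does. Of the counts between 1 and 50, 80.5% to 85.0% were even, so both reads of a pair were probably counted, and 40 counts can be fewer molecules. Counting reads without molecular identifiers limits the precision of sparse genes.

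The genes named were the 12 with the highest CPM, the 10 with the highest density, up to 8 with the lowest and the highest log2 fold changes at a mean count of at least 50 and without overlap, listed names, the longest and the most isolated. Members, lists and tests were chosen with earlier results of these data known. Replicate numbers are not stated to pair the libraries, and same-numbered deviations did not correlate over all tested genes (0.00498). Alternatives were another tool, scaling or filter, a replicate block, trends on length and GC, other limits and each library left out.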

Additional observations from a re-analysis of the deposited data

How the results depend on the processing

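The calls depended on the setting, and for each result below the cause was not tested. Over all tested genes the count of calls was 1, but 99 with DESeq2, 65 without a filter on low counts, 433 with the replicate block and 0 to 2431 with each library left out. Among far intergenic lncRNA genes it was 0, but 2 with DESeq2, 2 without the filter, 39 with the replicate block (38 higher and 1 lower) and 0 to 216 with each library left out. Without T4A replicate 1 it was 9 of 992 (5 higher and 4 lower), beside 224 of 23321 over all tested genes, and without T4A replicate 2 it was 216, beside 2431. Replicate numbers mark no pairing known from the labels, and same-numbered libraries did not deviate together over all tested genes. Among the far intergenic lncRNA genes, however, replicate 1 had the higher median shift in log2 CPM in both groups. This shift was 0.07 in replicate 1 and -0.07 in replicate 2 of WT, and 0.66 and 0.21 in those of T4A. The genes higher at an unadjusted p below 0.05 numbered 176, but 79 with DESeq2 and 48 to 349 with each library left out, and the lower ones numbered 33, and 11 to 49 with each library left out. The median shift of 0.49 was 0.15 after subtraction of olfactory receptor density, which left 555 genes whose median without it was 0.17. It was 0.15 for genes with at least 200 counts, 0.12 for genes denser than olfactory receptor genes and 0.21 to 0.68 with each library left out. The share above the median gene of 76.4% was 59.1%, 62.2%, 58.8% and 65.6% to 77.9% under the same settings. The shift and this share moved by less than the spread between replicates under the other settings run, which were other size factors, DESeq2, no filter, at least 10 counts in every library, the block, halved counts, length and GC trends, other distances, no overlap with another gene, RefSeq coding genes and without XIST. Halved counts, the GC trend, RefSeq coding genes, density above olfactory receptor genes and leaving out XIST were chosen after seeing the data. Restricting the type to lincRNA was not run, since the annotation has no such type.

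Some single genes changed sign. The log2 fold change of LINC00632 was 0.0138 with library sizes alone. That of LINC02428 was -0.0038 without the filter and -0.0102 with the GC trend removed, and that of ENSG00000229422 was 0.0516 with the GC trend removed. That of ENSG00000286171 was -0.0178 without the filter, -0.0121 with the length trend removed, -0.0178 with the GC trend removed and -7.9e-06 after the subtraction. With each library left out, the log2 fold changes ran from -0.16 to 0.0431 for JPX, -0.0851 to 0.0153 for LINC00632, -0.0379 to 0.10 for LINC02428, -0.0418 to 0.34 for ENSG00000278730, -0.0227 to 0.43 for LINC01116, -2.06 to 0.0307 for ENSG00000287168, -0.20 to 0.39 for LARRPM, -3.50 to 0.47 for ENSG00000229422, -0.61 to 1.09 for ENSG00000286171 and -0.15 to 1.77 for ENSG00000288321. The low counts of the sparse genes limit all of these values.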
